A study of Homo sapiens with 2 samples.

Results

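FOXA2 transcripts occur in sorted human serotonin neuron preparations in cells with no captured transcript of the floor plate genes SHH and CORIN. The question asked of these cells is which cell identity carries the FOXA2 transcript. A cell was counted when it held at least 2 FOXA2 UMIs (unique molecular identifiers, each marking 1 captured transcript) and 0 UMIs of SHH and of CORIN. It also had 1000 or more UMIs from 500 or more genes, with no more than 10% of them mitochondrial. There were 219 such cells among the 13958 that met these limits: 36 of 6385 under the label WT, and 183 of 7573 under FKO. FOXA2, SHH and CORIN chose the cells, so their values are given as a description only.

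Both libraries were made from the H9 (WA09) human embryonic stem cell line with an EGFP reporter knocked into TPH2, the gene of the enzyme that makes neurons serotonergic. The cells were induced to become serotonin neurons and sorted for EGFP at day 42, and 1 library per label was prepared with the 10x Genomics 3' chemistry. Agents named in the study's methods include CHIR99021, SB-431542, DMH1, the Hedgehog agonist purmorphamine and FGF4, retinoic acid in some cultures, and later vitamin C, DAPT, GDNF, BDNF, TGFβ3 and IGF1; the labels do not say which agents and doses these libraries had. The genotype given for WT is the TPH2-EGFP knockin, and that given for FKO is the same knockin with a FOXA2 knockout. By the study's methods, the knockout is an indel that sets a premature stop, clones were picked after drug selection, and the reporter was then built on that line, so each label stands for 1 line and 1 library. Because cells of 1 library do not replace replicate differentiations, no test between or within the libraries was made, and every interval given is an exact 95% interval that covers counting error only.

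FOXA2 is a forkhead transcription factor of the ventral midline. In the embryonic neural tube it marks the floor plate, a strip of glial-like cells that secrete SHH, NTN1 and SPON1, and it also passes through progenitors and some ventral neurons. Serotonin neurons arise beside the floor plate from progenitors that express NKX2-2, and then turn on GATA2, GATA3, LMX1B and FEV, which switch on TPH2 and the transport of serotonin.

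The cells were rarer and held fewer FOXA2 transcripts in the library labelled WT. They made up 0.564% (0.395% to 0.780%) of its kept cells and 2.42% (2.08% to 2.79%) of those in the library labelled FKO. FOXA2 UMIs in them summed to 99 in the library labelled WT, with at most 8 in a cell, and to 769 in the library labelled FKO, with at most 18 in a cell. An indel with a premature stop need not lower transcripts, and counts of 3' ends do not show an indel, so these levels do not test the genotype and the words WT and FKO stand for labels only. Of all cells with at least 2 FOXA2 UMIs, 36 of 71 in the library labelled WT (50.7%, 38.6% to 62.8%) and 183 of 249 in the library labelled FKO (73.5%, 67.6% to 78.9%) lacked SHH and CORIN. The others, 35 and 66 cells, are used here as a second reference.

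**Figure D1:**
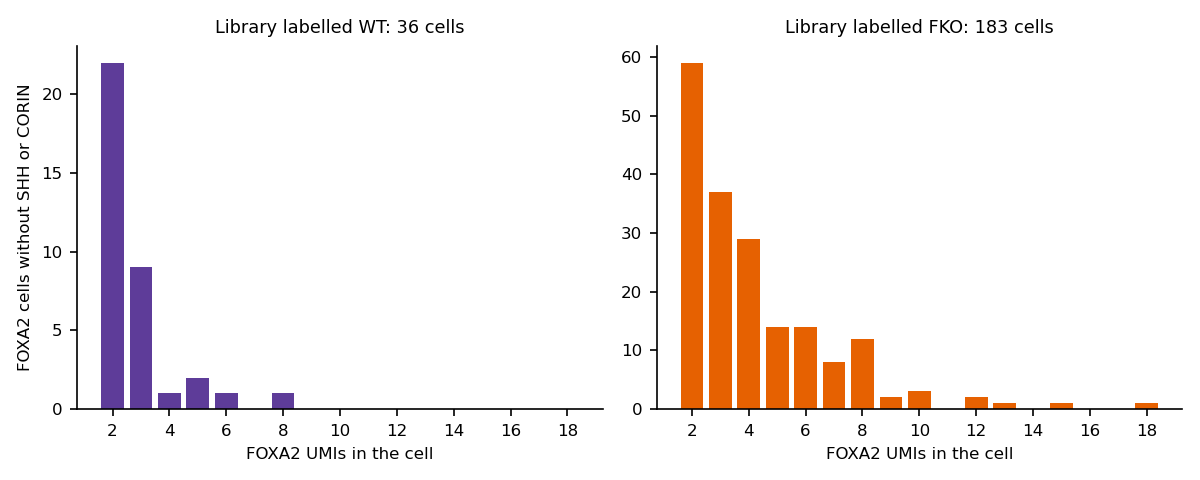
Number of FOXA2 cells without SHH or CORIN (vertical axis) by the count of FOXA2 UMIs in the cell (horizontal axis) for each library. In the library labelled WT 22 of 36 cells sit at the minimum of 2 UMIs, and in the library labelled FKO 59 of 183 do.

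Kept cells held 86987022 UMIs in the library labelled WT, 66749069 in that labelled FKO, and depth differed between the groups being compared. Median UMIs per cell were 13209.5 in the 36 cells, 12618 in the 6146 cells with 0 FOXA2 UMIs and 20624 in the 35 cells with SHH or CORIN. The same medians in the library labelled FKO were 10477, 6995 (6998 cells) and 13794. A deeper cell has more chances to show 2 FOXA2 UMIs and also more chances to show SHH, and how far depth decides membership was not tested beyond thinning. When each cell was thinned to 2000 UMIs and the limit lowered to 1 FOXA2 UMI, the share without SHH and CORIN was 86.2% (WT) and 95.8% (FKO). Doublet scores from Scrublet marked 4 of the 36 cells (11.1%, against 10.0% of cells with 0 FOXA2 UMIs) and 29 of the 183 (15.8%, against 7.1%); marked cells were kept, since leaving them out turned no direction of the values recomputed. The 2 libraries share 21 deposited barcodes, 0 barcodes are shared by the 36 and the 183 cells, and 1 of theirs occurs among the deposited barcodes of the other library.

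The values change across the threshold of 2 UMIs. Just outside it, cells with 1 FOXA2 UMI and no SHH or CORIN numbered 145 (WT) and 313 (FKO). Their FEV level was 1500 and 910 CPM (the gene's UMIs over all UMIs of the pooled cells, in parts per 1e6), and their FOXA1 level was 3.40 and 24.9 CPM. Just inside it, with exactly 2 UMIs, FEV was at 946 and 750 CPM and FOXA1 at 9.28 and 28.8 CPM. From 3 UMIs on, FEV stood at 848 and 572 CPM and FOXA1 at 7.78 and 62.4 CPM, so FEV was lower and, in the library labelled FKO, FOXA1 was higher in cells with more FOXA2 UMIs.

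The cells did not form 1 population. Each library was clustered on its own without FOXA2, FOXA1, SHH and CORIN among the features, which gave 15 clusters (WT) and 23 clusters (FKO), with the cells in 8 and 22 of them. Clusters are numbered by size within a library and described by their leading genes, which helped to form them and are no results; with LINC00261 left out of the features as well, the share of the cells in the largest cluster, which was the value recomputed, stayed within its interval. Of the 36 cells, 22 (61.1%, 43.5% to 76.9%) lay in clusters 5 and 11 of the library labelled WT, which held 10.51% of its cells with 0 FOXA2 UMIs. Of the 183 cells, 131 (71.6%, 64.5% to 78.0%) lay in 7 clusters of the library labelled FKO that held 22.7% of its cells with 0 FOXA2 UMIs.

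**Figure D2:**
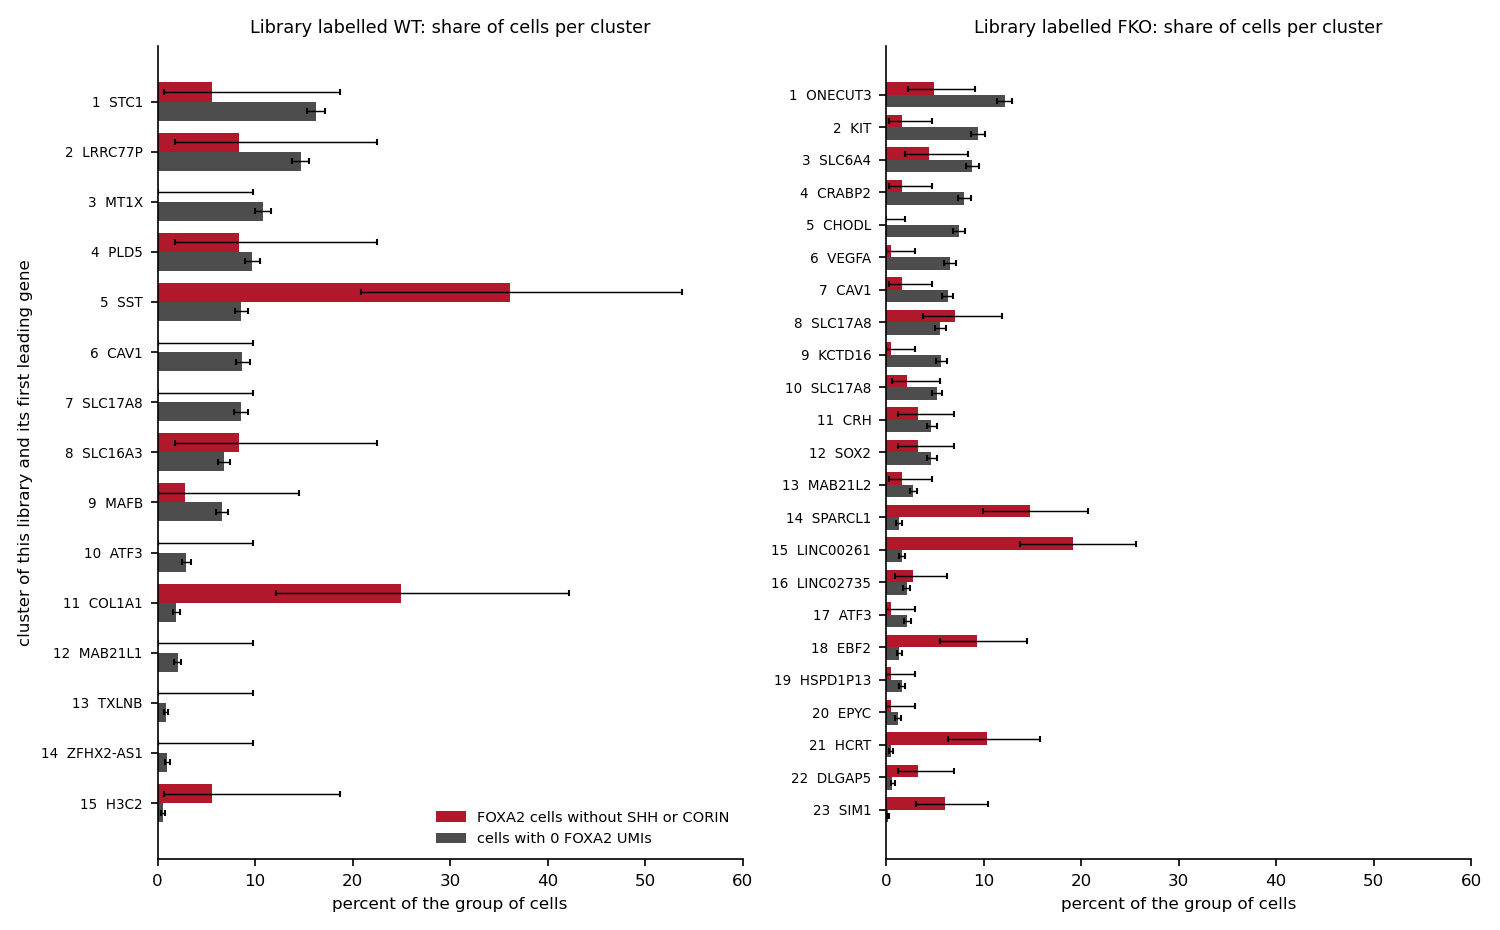
Percent of the FOXA2 cells without SHH or CORIN (red) and of the cells with 0 FOXA2 UMIs (grey) in each cluster of each library, with exact 95% Clopper-Pearson intervals; clusters carry their number and first leading gene. WT cluster 5 holds 36.1% of the first group and 8.59% of the second, and FKO clusters 14 and 15 hold 14.8% and 19.1% of the first and 1.30% and 1.66% of the second.

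Floor plate-like clusters were found in both libraries, and the rule itself keeps cells with SHH or CORIN, which such clusters hold, out of the cells described. WT cluster 13, named from the fixed markers NTN1, SPON1 and FOXA1 in 87.4%, 97.1% and 74.8% of its 103 cells, held 29 of the 35 FOXA2 cells with SHH or CORIN and 0 of the 36 without, with an exact upper limit of 9.74%. FKO cluster 14, with NTN1 in 50.8%, SPON1 in 53.1% and FOXA1 in 36.9% of 179 cells, held 38 of the 66 FOXA2 cells with SHH or CORIN and 27 of the 183 without (14.8%, 9.95% to 20.7%). Most of the 183 cells therefore lay outside it.

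Serotonergic genes were present but lower. Of 12 serotonergic genes, 10 gave a ratio in the library labelled WT, 9 of them lower than in cells with 0 FOXA2 UMIs, and 3 at least 2-fold lower, where 2.86% of 9069 genes were. The list's median log2 ratio was -0.65, against a median of 0.04 over all genes. FEV, the transcription factor that defines serotonin neurons, was at 903 CPM against 1620 CPM in cells with 0 FOXA2 UMIs, and GATA3, which acts with it, at 444 against 613 CPM. TPH2 itself was at 46.5 against 202 CPM, a log2 ratio of -2.12 (-2.72 to -1.57), and MAOB, a monoamine oxidase, at 81.0 against 186 CPM. GATA2 was the gene of the list with a higher value, 31.0 against 24.6 CPM, and SLC22A3 and HTR1A had 0 UMIs.

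The same list lay lower as a whole in the library labelled FKO, where all 11 genes with a ratio had values under those of cells with 0 FOXA2 UMIs and none was 2-fold lower, beside 0.200% of 9989 genes. Its median log2 ratio was -0.53, and the median of all genes was -0.0048. FEV was at 623 against 931 CPM, GATA3 at 705 against 842 CPM, DDC, the enzyme that completes serotonin synthesis, at 160 against 231 CPM, and TPH2 at 98.4 against 167 CPM. Summed over the list, the cells held 1908 CPM against 2600 CPM, and the FOXA2 cells with SHH or CORIN held 1411 CPM. The sums for WT were 1824, 3066 and 516 CPM, so in both libraries the cells stood between their 2 references.

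These serotonergic levels depend on the cells used as reference. When cells with 0 FOXA2 UMIs were weighted to the clusters in which the 183 cells lay, the median turned to 0.14, with FEV at 0.14, GATA3 at 0.35 and TPH2 at 0.07 on the log2 scale. For the 36 cells it became 0.07, with GATA3 at 0.10, while FEV and TPH2 stayed lower, at -0.12 and -1.10. Single clusters differed: against cells with 0 FOXA2 UMIs of the same cluster the list's median was -0.50 in WT cluster 5, -0.46 in FKO cluster 1 and -0.21 in FKO cluster 8. It was 1.29 in WT cluster 11, and in the other FKO clusters 0.61 (14), 0.19 (15), 0.35 (18), 0.48 (21) and 0.89 (23).

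A FEV UMI was also seen in cells that should lack it, for which free RNA, doublets and expression cannot be told apart. After thinning to 2000 UMIs, which left out 43 WT cells and 116 FKO cells, FEV was seen in 63.9% (46.2% to 79.2%) of the 36 cells and 90.6% of cells with 0 FOXA2 UMIs. In cells that should lack it, those of floor plate-like WT cluster 13, it was seen in 40.2%. Without thinning the shares were 88.9%, 98.3% and 80.6% at median depths of 13209.5, 12618 and 16443 UMIs. The thinned shares in the library labelled FKO were 49.5% (42% to 56.9%) of the cells described and 77.5% of cells with 0 FOXA2 UMIs. Cluster 20 of that library, a mesenchymal-like cluster with COL1A1 in 97.7% and LUM in 93.1% of 87 cells, gave 34.5%, and without thinning the 3 shares were 71.6%, 92.4% and 58.6% at 10477, 6995 and 9202 UMIs. In floor plate-like FKO cluster 14 the shares were 36.2% thinned and 64.8% without thinning, at 11943 UMIs. The FEV shares of the cells described thus lay between those of clusters that should lack FEV and those of cells with 0 FOXA2 UMIs, and how much of them is background was not tested.

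Among the 9 floor plate genes other than SHH and CORIN, 7 gave a ratio in the library labelled WT, 3 of them at least 2-fold higher, where 5.87% of all genes were, and the median log2 ratio was -0.03; it was 1.14 in the 14 cells with at least 3 FOXA2 UMIs. The WT genes past 2-fold came from few cells, LMX1A at 8.61 against 0.048 CPM from 3, and FOXA1 from 4, and both lay under that floor. For FKO 8 gave a ratio, 7 of them at least 2-fold higher, where 2.55% of all genes were, and the median was 3.55. No difference between the libraries was tested.

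**Figure D3:**
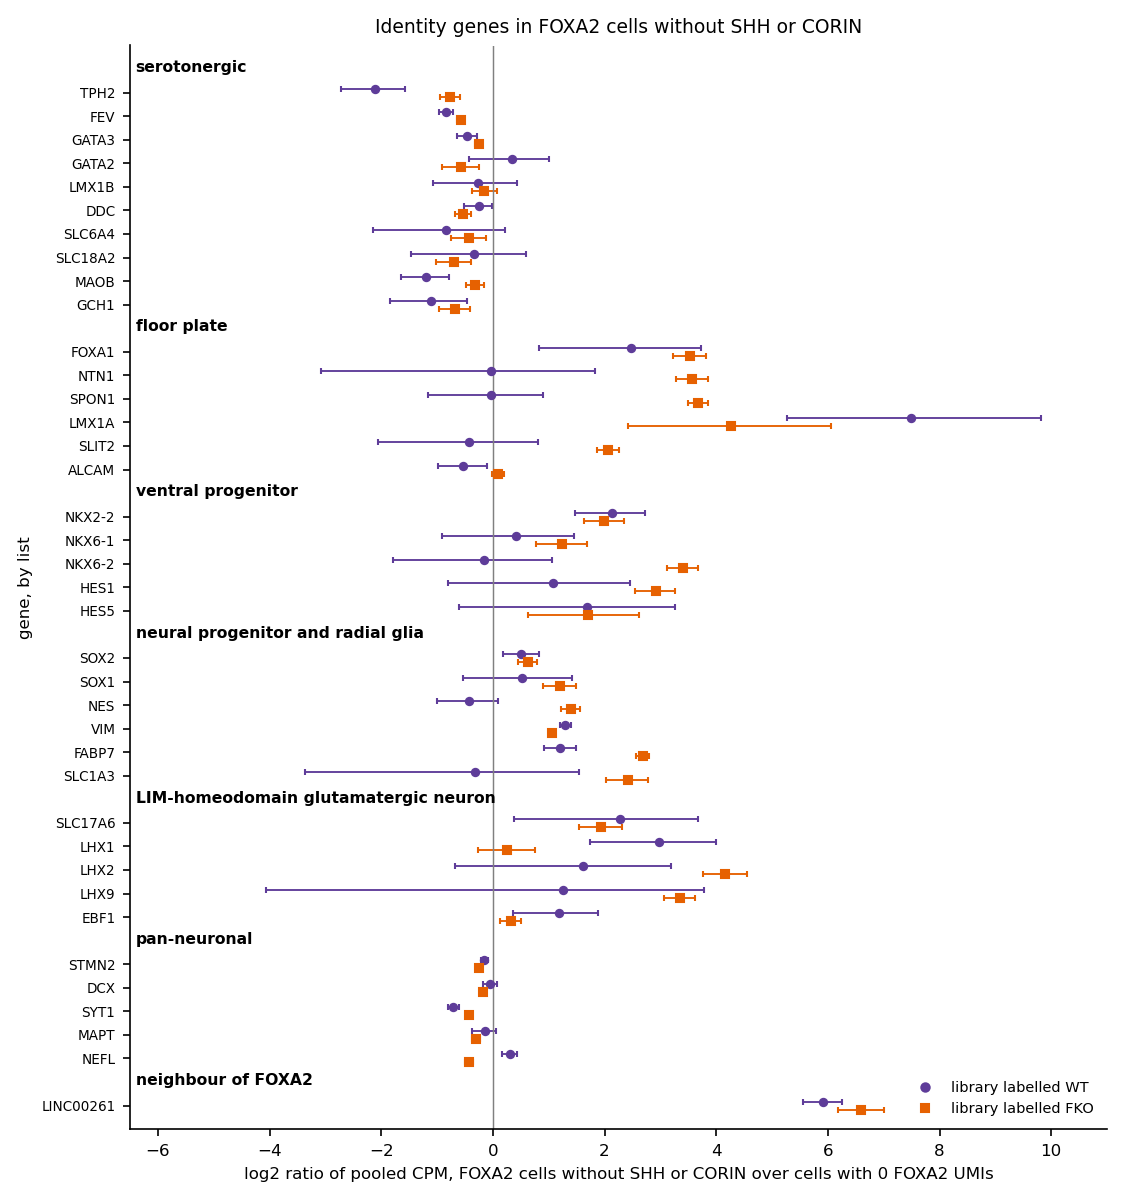
Log2 ratio of pooled CPM in the FOXA2 cells without SHH or CORIN over cells with 0 FOXA2 UMIs (horizontal axis) for identity genes grouped by list, with exact 95% intervals from counts; circles are the library labelled WT and squares the library labelled FKO. NTN1 and SPON1 stand at -0.03 and -0.03 in the first and at 3.57 and 3.67 in the second, while NKX2-2 stands at 2.13 and 1.999.

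FOXA1, the sister factor that floor plate cells express with FOXA2, was at 8.61 CPM in the 36 cells, 1.55 CPM in cells with 0 FOXA2 UMIs and 74.6 CPM in FOXA2 cells with SHH or CORIN. It was seen in 4 of the 36 cells (11.1%, 3.11% to 26.1%) and in 1.38% of cells with 0 FOXA2 UMIs; after thinning the shares were 5.56% (0.680% to 18.7%) and 0.295%. In the 183 cells FOXA1 was at 52.8 CPM, in cells with 0 FOXA2 UMIs at 4.58 CPM and in FOXA2 cells with SHH or CORIN at 106 CPM. It was seen in 76 of the 183 cells (41.5%, 34.3% to 49.0%) and in 3.03% of cells with 0 FOXA2 UMIs; after thinning they were 7.69% (4.27% to 12.6%) and 1.02%. FOXA1, which the rule did not use, was therefore seen more often with FOXA2 than without it in both libraries. The thinned WT share rests on 2 cells, and the libraries were not compared by a test.

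NTN1, a secreted axon guidance cue, was at 3.44 CPM against 3.52 CPM in the library labelled WT, in 1 cell, and at 60.7 CPM against 5.12 CPM in the library labelled FKO. SPON1, which encodes F-spondin, was at 15.5 against 15.8 CPM and at 142 against 11.1 CPM. The midline repellent SLIT2, at 92.7 against 22.2 CPM, was also high in the library labelled FKO. In FOXA2 cells with SHH or CORIN SPON1 reached 763 CPM (WT) and 604 CPM (FKO), above the cells described in both libraries. In the 111 FKO cells without NTN1 and SPON1 transcripts the median of the list was 0.28, a value that the choice of cells lowers by itself, since both genes are on the list.

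The long non-coding RNA gene LINC00261 (ENSG00000259974) lies on the minus strand of chromosome 20 from 22547671 to 22578642, 2362 bases from FOXA2 (ENSG00000125798, 22581005 to 22585455, same strand; GRCh38, GENCODE 29). It had the highest ratio of the genes named by size in the library labelled WT, at 176 CPM in the 36 cells, 2.92 CPM in cells with 0 FOXA2 UMIs and 282 CPM in FOXA2 cells with SHH or CORIN. The FKO values were 98.8, 1.03 and 119 CPM, just under the 100 CPM that the naming of genes by size asks for. The log2 ratios over cells with 0 FOXA2 UMIs were 5.91 (5.56 to 6.25) and 6.59 (6.18 to 7.01). It was seen in 17 of the 36 cells and in 79 of the 183, and after thinning in 22.2% and 17.6%, against 0.410% and 0.116% of cells with 0 FOXA2 UMIs. Without thinning the shares were 47.2% and 43.2% against 1.94% and 0.643%. In mesenchymal-like FKO cluster 20, which should lack both genes, LINC00261 and FOXA1 were seen in 2.30% and 3.45% of cells, at a median of 9202 UMIs. Unlike NTN1 and SPON1, the neighbour of FOXA2 was thus high in the FOXA2 cells of both libraries.

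**Figure D4:**
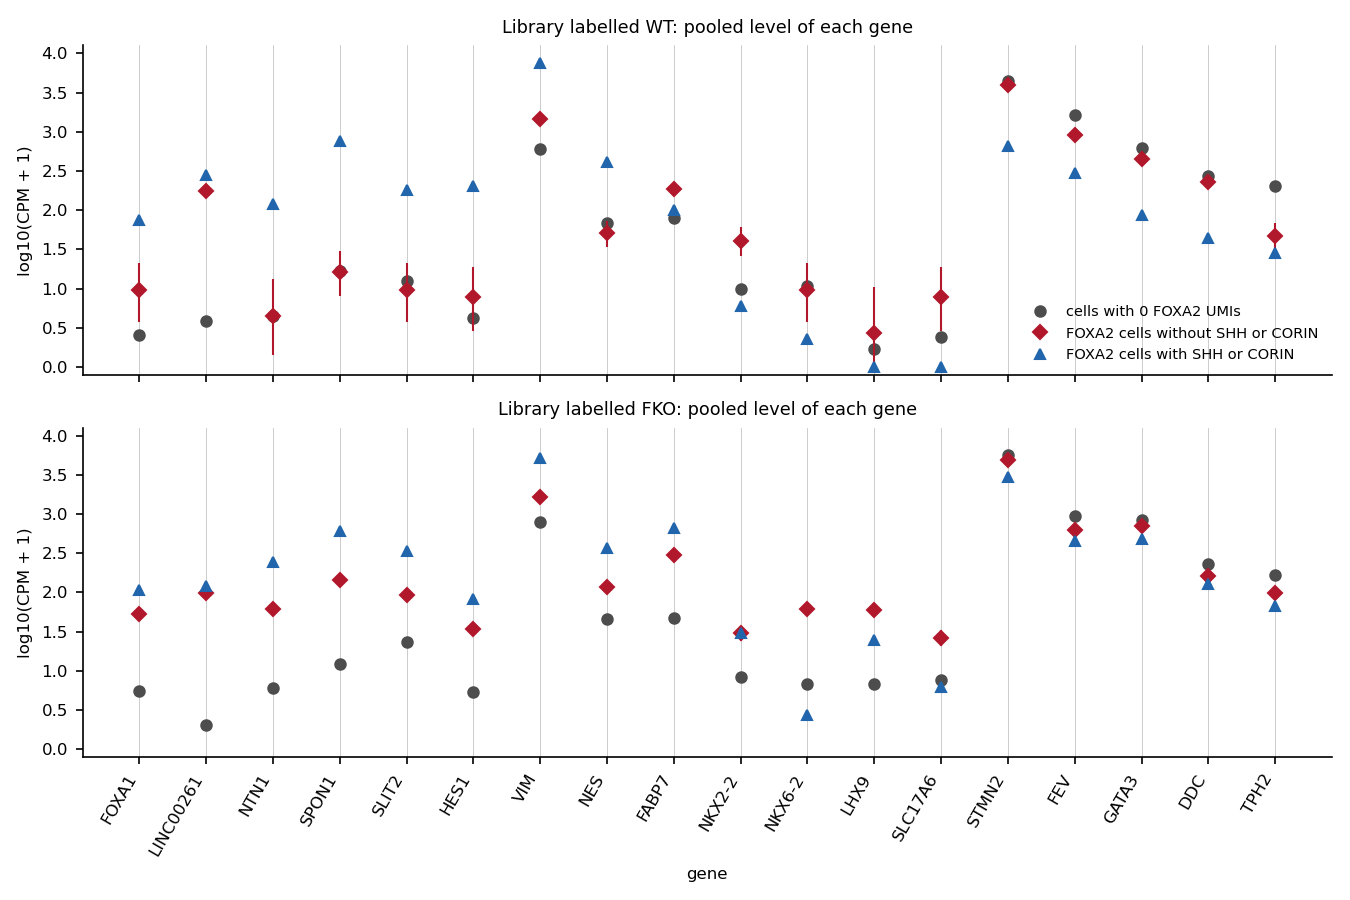
Pooled level of 18 genes as log10(CPM + 1) in the FOXA2 cells without SHH or CORIN (red, with exact 95% intervals), cells with 0 FOXA2 UMIs (grey) and FOXA2 cells with SHH or CORIN (blue). LINC00261 is nearer the blue than the grey level in both libraries, at 176 and 98.8 CPM, whereas SPON1 in the library labelled WT lies on the grey level, at 15.5 CPM.

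Among the genes of ventral progenitors, 5 of the 7 with a ratio in the library labelled WT and 8 of the 9 in the one labelled FKO were at least 2-fold higher, where 5.87% and 2.55% of all genes were. The median log2 ratios were 1.68 and 2.61. NKX2-2, which marks the progenitor domain beside the floor plate, was at 39.6 against 9.03 CPM in the library labelled WT, in 8 of 36 cells, and at 29.03 against 7.26 CPM in that labelled FKO, in 47 of 183. It was higher in the cells of both libraries, though in FKO its log2 ratio fell from 1.999 to 0.37 with the reference weighted to clusters (2.16 in WT). FOXA2 cells with SHH or CORIN held it at 5.06 CPM (WT) and 29.6 CPM (FKO). HES1, a Notch target of undifferentiated cells, was at 6.89 against 3.27 CPM (WT) and 33.6 against 4.45 CPM (FKO).

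Radial glia and progenitor genes were higher as well, with 4 of 8 (WT, beside 5.87% of all genes) and 6 of 9 (FKO, beside 2.55%) at least 2-fold higher and medians of 0.82 and 1.21. In the library labelled WT 2 cells held 46.3% of the list's UMIs. The intermediate filament VIM was at 1471 against 597 CPM in the library labelled WT and at 1670 against 801 CPM in the one labelled FKO. FABP7, a fatty acid binding protein of radial glia, was at 184 against 79.6 CPM and at 299 against 46.4 CPM. These values depended on the reference: weighted to the clusters of the 36 cells, the median was -0.31 and the log2 ratio of VIM -0.70. In the 111 FKO cells without NTN1 and SPON1 transcripts the median of the list was -0.14, with VIM at -0.29.

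Neuronal transcripts were common in the cells. STMN2, a microtubule regulator of growing axons, was seen in 35 of 36 and 178 of 183 cells, after thinning in 91.7% and 91.2% against 98.4% and 97.7% of cells with 0 FOXA2 UMIs. In the mesenchymal-like FKO cluster 20, which should lack it, the thinned share was 59.8%. Over 8 pan-neuronal genes the median log2 ratio was -0.14 (WT) and -0.27 (FKO), and none was 2-fold lower. The summed level was 7639 CPM in the 36 cells against 1433 CPM in FOXA2 cells with SHH or CORIN, and 10668 against 7013 CPM in the library labelled FKO.

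Cycling genes separated a few cells from the rest. Their median log2 ratio was 4.17 in the library labelled WT, with 8 of 9 genes at least 2-fold higher beside 5.87% of all genes, but 2 cells held 96.3% of the UMIs. Without cluster 15, a cycling-like cluster led by TOP2A, MKI67 and UBE2C with 2 of the 36 cells, the median was 0.38. For FKO the median was 1.66, 8 of 10 genes were at least 2-fold higher beside 2.55% of all genes, and 2 cells held 49.8% of the UMIs; weighted to clusters it was 0.0014. Cells without any of the 10 transcripts numbered 19 of 36 and 120 of 183.

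The 36 cells of the library labelled WT fell mainly into a neuronal and a mixed cluster. Cluster 5, led by SST, EBF1, ONECUT1 and ONECUT2, held 13 of them (36.1%, 20.8% to 53.8%) and 8.59% of cells with 0 FOXA2 UMIs. Its 13 cells had FEV at 818 CPM, TPH2 at 50.8 CPM, STMN2 at 5638 CPM and LINC00261 at 186 CPM in 6 cells, with 0 UMIs of SST and of NTN1 and FOXA1 in 1 cell. Pooled, these cells thus held serotonergic and neuronal transcripts with FOXA2, with FEV seen in 11 of the 13 and TPH2 in 5. The rule itself set SHH and CORIN to 0 in them. Floor plate-like WT cluster 13, which should lack FEV, had it at 331 CPM.

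Cluster 11, led by COL1A1, COL1A2, CYP26A1 and S100A11, held 9 of the 36 cells (25%, 12.1% to 42.2%) and 1.92% of cells with 0 FOXA2 UMIs. Its FOXA2 cells differed from the rest of that cluster. Of the leading genes named, they held 0 UMIs of COL1A1 and CYP26A1, with COL1A2 in 2 cells and S100A11 in 1. They had VIM at 1166 CPM against 4716 CPM, STMN2 at 3499 against 1176 CPM, FEV at 656 against 422 CPM and NKX2-2 at 69.4 against 9.78 CPM. LINC00261 was at 391 against 7.48 CPM.

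The 183 cells of the library labelled FKO spread over more identities. The largest group, 35 cells (19.1%, 13.7% to 25.6%), lay in cluster 15, led by LINC00261, SOX3 and RFX4, which held 1.66% of cells with 0 FOXA2 UMIs. Its FOXA2 cells held NKX2-2 at 73.3 CPM and FOXA1 at 70.1 CPM. LINC00261 was at 344 CPM, in 25 of them. STMN2 was at 4315 CPM while FEV, at 118 CPM, and TPH2, at 6.37 CPM in 1 cell, were low, and FEV was at 116 CPM in the cluster's cells with 0 FOXA2 UMIs. Other serotonergic genes differed from the cluster's cells with 0 FOXA2 UMIs in both directions. LMX1B was at 79.7 against 32.5 CPM, DDC at 89.2 against 35.2 CPM and MAOB at 95.6 against 17.6 CPM, while GATA3 was at 118 against 199 CPM. This cluster thus paired neuronal and progenitor transcripts with FOXA2 where FEV and TPH2 were low.

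The 27 cells of the floor plate-like cluster 14 held 23 of the 50 FOXA2 cells with SPON1 and 22 of the 54 with NTN1. SPON1 was at 574 CPM, NTN1 at 216 CPM, SLIT2 at 293 CPM, HES1 at 114 CPM and VIM at 5010.5 CPM. Cells with 0 FOXA2 UMIs of the same cluster held SPON1 at 65.9 CPM and NTN1 at 43.3 CPM. LINC00261 was at 44.8 CPM here.

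Other groups lay in clusters led by genes of other neurons. Cluster 21, led by HCRT, PTH2, LHX2 and LHX9, held 19 cells, with LHX9 at 478 CPM in 19 of 19, LHX2 at 341 CPM in 17, NKX2-2 at 77.4 CPM in 14, and 0 UMIs of FOXA1. In the cluster's cells with 0 FOXA2 UMIs LHX9 was at 506 CPM, LHX2 at 172 CPM and NKX2-2 at 73.8 CPM. Other leading genes differed in both directions. HCRT was at 4459 against 1946 CPM, and TCF7L2, seen in 2 of the 19, at 28.1 against 435 CPM. HCRT encodes the precursor of the orexin peptides, and LHX9 is a LIM-homeodomain factor of diencephalic and dorsal neurons. Cluster 18, led by EBF2, ROBO3 and NHLH1, held 17 cells with the vesicular glutamate transporter SLC17A6 at 112 CPM and FOXA1 in 10. FEV was at 510 CPM in 12 of 19 cells of cluster 21 and at 583 CPM in 12 of 17 cells of cluster 18. These values cannot be told from that of mesenchymal-like cluster 20, which should lack FEV, at 533 CPM in 58.6% of cells. Clusters 15 and 23, over all their cells, had FEV at 145 and 202 CPM, so cluster 20 gives no level common to the library. How much of the FEV in clusters 21 and 18 is background was not tested. GATA3, at 815 CPM in cluster 18, was at 459 CPM in cluster 20. Of the leading genes of cluster 18, EBF2, ROBO3, NHLH1 and CRYBG3 were seen in 4, 4, 5 and 7 of those 17 cells, and SLC17A6, ST18, CNTN2 and NRN1 in 12, 11, 10 and 9. The other leading genes, MAB21L1 and TFAP2B, were each seen in 2 of the 17. They were at 8.27 and 37.2 CPM, against 82.3 and 240 CPM in cells with 0 FOXA2 UMIs of cluster 18.

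Cluster 23 was small and rich in FOXA2. Of its 28 cells 11 (39.3%, 21.5% to 59.4%) belonged to the 183. It was led by SIM1 and NKX6-2. FOXA1 was seen in 11 of these 11 at 275 CPM, and LINC00261 in 11 of 11 at 550.02 CPM, while its 14 cells with 0 FOXA2 UMIs held FOXA1 at 28.2 CPM and LINC00261 at 0 CPM. NKX6-2 was at 939 CPM in the 11 and 875 CPM in the 14, NR4A2, an orphan nuclear receptor of ventral neurons, at 190 and 120 CPM, and SLC17A6 at 180 and 247 CPM. The identity genes were thus of similar level in cells of this cluster with and without FOXA2, and FOXA1 and LINC00261 were not.

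**Figure D5:**
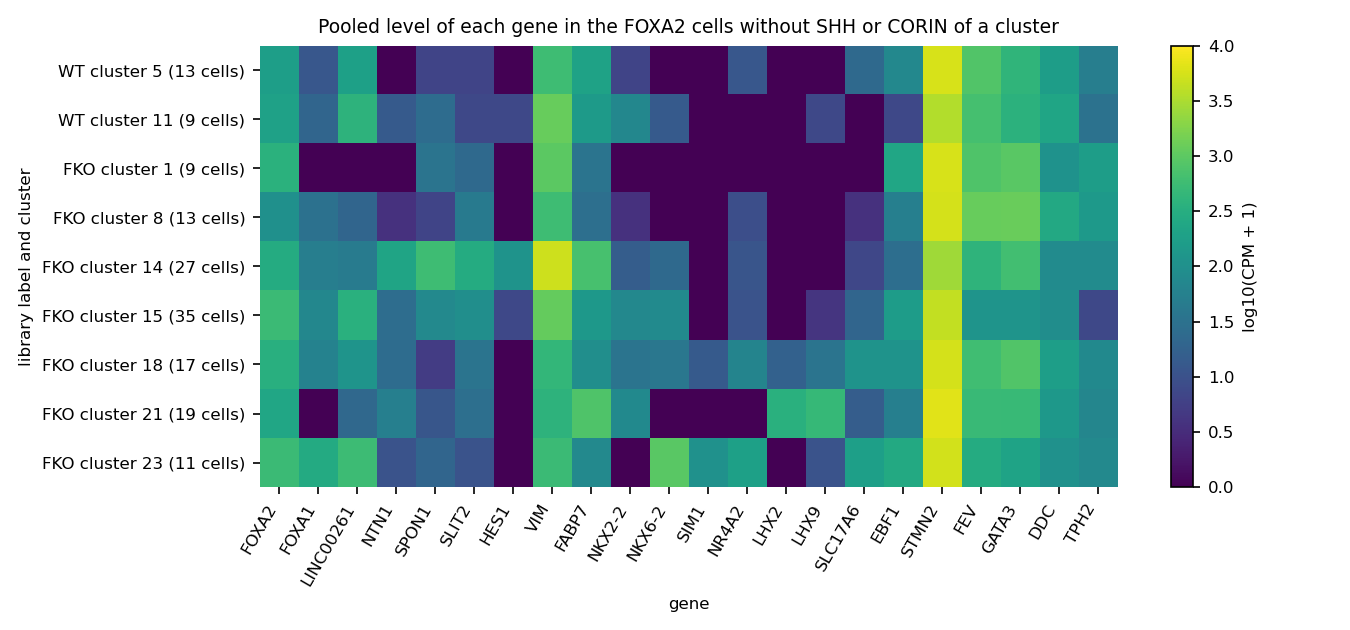
Pooled level of 22 genes as log10(CPM + 1) (colour) in the FOXA2 cells without SHH or CORIN of the 9 clusters that hold at least 9 of them. FKO cluster 14 has SPON1 at 574 CPM, cluster 21 has LHX9 at 478 CPM, cluster 23 has NKX6-2 at 939 CPM, and FEV runs from 118 CPM in cluster 15 to 1179 CPM in cluster 8.

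The remaining FKO groups had the highest FEV levels of the 7 clusters. Cluster 8, led by SLC17A8 and PDZRN4, held 13 cells with FEV at 1179 CPM in 13 of 13 and TPH2 at 138 CPM, but doublet scores marked 8 of the 13 and 36.7% of the cluster, and their median depth was 24771 UMIs. Cluster 1, led by ONECUT3, held 9 cells with FEV at 804 CPM and TPH2 at 165 CPM, with 0 UMIs of FOXA1, NTN1 and LINC00261 but SPON1 at 33.0 against 6.06 CPM, in 2 cells. Against cells with 0 FOXA2 UMIs of cluster 1 the median log2 ratio was 1.67 for floor plate genes and -0.46 for serotonergic genes. The floor plate value rests on few UMIs, with SPON1 from 3, SLIT2 from 2, MSX1 from 1 and ALCAM, at a log2 ratio of 0.39, from 25. The 852 cells with 0 FOXA2 UMIs of cluster 1 had FEV at 891 CPM and TPH2 at 149 CPM, and scores marked 0 of the 9 as doublets. The part of doublets in cluster 8 was not tested.

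Among the 183 cells, those with and without a FEV UMI differed in FOXA2's neighbour; a FEV UMI alone does not make a cell serotonergic. LINC00261 was seen in 43 of the 131 cells with FEV (32.8%) and in 36 of the 52 without (69.2%), although the latter were less deep, with medians of 8665.5 and 13449 UMIs. TPH2 was seen in 77 and 3 of them, and FOXA1 in 51 and 25. FOXA1 went with LINC00261: 43 of 76 cells with FOXA1 had it (56.6%) and 36 of 107 without (33.6%), at median depths of 10198 and 10636 UMIs. The sets are small in the library labelled WT, with LINC00261 in 16 of 32 cells with FEV and 1 of 4 without.

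LIM-homeodomain and glutamatergic genes were seen in 16 of the 36 cells and 116 of the 183. For WT 6 of 10 gave a ratio, all at least 2-fold higher beside 5.87% of all genes, from 33 UMIs in all. EBF1 was the most abundant, at 27.6 CPM. LHX5, LHX4, ISL1 and EBF2 had 0 UMIs, so the count of 6 and the median of 1.95 rest on few UMIs. List genes did not have to reach the floor asked of the genes behind the 5.87%, so that count and that share are over unlike genes. For FKO the median was 0.73, with 5 of 10 genes at least 2-fold higher and 2 lower by as much, beside 2.55% and 0.200% of all genes. LHX9 was at 58.8 against 5.76 CPM, LHX2 at 38.1 against 2.12 CPM and SLC17A6 at 25.6 against 6.67 CPM. Weighted to the clusters of the 183 cells, the median turned to -0.64, and the log2 ratios of LHX9 and SLC17A6 became -0.20 and -0.61.

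Of 9069 genes compared in the library labelled WT, 532 were at least 2-fold higher and 259 at least 2-fold lower, and for 552 of these 791 the interval lay on 1 side of no difference. Of 9989 in the library labelled FKO, 255 were higher and 20 lower, and the interval did so for 275 of 275. The larger number in the library labelled WT goes with a pool of 580556 UMIs against 2652550. Under a threshold of 1 FOXA2 UMI the number there was 55.

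After LINC00261, the genes of highest ratio in the library labelled WT were IGFBP5, an insulin-like growth factor binding protein, and the cell cycle genes CCNB1, PTTG1, CKS1B, CKS2 and HMGB2. In these 6 genes 1 cell held from 45.5% to 55.1% of the UMIs. C1QL1, a synaptic secreted protein, was spread more widely, at 146 against 28.4 CPM in 66.7% of the 36 cells, with 14.1% of its UMIs in 1 cell. PALM2AKAP2 was at 121 against 24.95 CPM in 58.3% of the cells, with 30% of its UMIs in 1 cell. HLA-B, at 233 against 58.4 CPM, was seen in 38.9% of the cells against 35.1% of cells with 0 FOXA2 UMIs, with 38.5% of its UMIs in 1 cell. The lowest were TPH2, SLC17A8, which encodes the vesicular glutamate transporter VGLUT3, ZFHX4-AS1, CALB1, MAOB, PLPPR5, PRSS12, STAG2, DACH2 and CRYBA2, with log2 ratios from -2.12 to -1.02.

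In the library labelled FKO the highest were SULF1, a sulfatase that edits heparan sulfate, at 212 against 7.36 CPM, HCRT at 486 against 18.6 CPM, the progenitor factor RFX4 at 106 against 6.40 CPM, and SPON1. They were followed by IGFBP5 at 1026 against 101 CPM, WLS, a carrier of Wnt proteins, FABP7, PON2, IGFBP2 and SPARC, with log2 ratios down to 1.45. HCRT was seen in 17.5% of the cells and 1 cell held 26.5% of its UMIs. The lowest were CRABP1, PRSS12, CALB1, PDZRN4, SPOCK3, GALNTL6, KCND2, CPLX2, TPH2 and CDYL2, with log2 ratios from -1.05 to -0.73. CALB1, PRSS12 and TPH2 were thus among the lowest 10 of both libraries, and IGFBP5 among the highest 10 of both.

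Hedgehog pathway genes had 3 of 7 at least 2-fold higher in the library labelled WT, beside 5.87% of all genes compared. The list held 24 UMIs in all there, so this count rests on few UMIs, and list genes did not have to reach the floor of that share. In the library labelled FKO 0 of 11 were higher and 2 lower by as much, beside 2.55% and 0.200%. The list's sums were 41.3 CPM against 29.1 CPM (WT) and 63.7 CPM against 70.3 CPM (FKO). PTCH1, the SHH receptor and a target of its signal, was at 22.4 against 17.4 CPM in the library labelled WT and at 28.7 against 35.7 CPM in the library labelled FKO. The median log2 ratio of the list was 0.37 over 7 genes of 11 in the first and -0.13 over 11 in the second. The V3 and ventral glutamatergic genes had medians of 2.21 (4 of 6 genes) and 1.94 (5 of 6). NKX2-2 and SLC17A6 were at least 2-fold higher in both libraries, LHX1 was so in the library labelled WT, and SIM1 in the other, at 6.03 CPM. That is 3 of 4 genes (WT, beside 5.87% of all genes) and 3 of 5 (FKO, beside 2.55%). In the library labelled WT SLC17A6 and LHX1 were each seen in 2 of the 36 cells, and SIM1 and OLIG3 were at 0.

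Markers of other cell types were checked as whole lists, and their part in the results was not tested. FOXA2 is also a gene of endoderm, whose defining markers SOX17, GATA4, GATA6, HNF4A and CDH1 had 0 UMIs in the FOXA2 cells of both libraries; of the 9 endoderm and epithelial genes, 4 and 3 gave a ratio, the sums were 49.95 CPM against 25.1 CPM (WT) and 15.5 CPM against 26.1 CPM (FKO), and KRT18 (24.1 CPM, WT) and EPCAM (10.6 CPM, FKO) were the most abundant. POU5F1 and NANOG had 0 UMIs in both, and the 5 pluripotency genes summed to 5.17 CPM against 3.21 CPM (DPPA4 only) and to 2.64 CPM against 2.9995 CPM (most of it L1TD1). These 2 lists thus left their defining genes unseen. The 8 mesenchymal genes summed to 36.2 CPM against 26.4 CPM, with COL1A1, DCN, PDGFRB and PRRX1 at 0, and to 161 CPM against 259 CPM, and COL3A1 was the most abundant in both, at 20.7 and 73.1 CPM. For WT 1 of 4 with a ratio was at least 2-fold higher, beside 5.87% of all genes, and 2 cells held 71.4% of the list's UMIs. For FKO 2 of 8 were at least 2-fold higher and 4 lower by as much, beside 2.55% and 0.200%. There 2 cells held 41.9% of the list's UMIs.

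Of the glial lists, the astrocyte and ependymal genes had 5 of 7 at least 2-fold higher in the library labelled FKO, beside 2.55% of all genes, with a median of 3.75, and 1 of 3 in the other, beside 5.87%, with a median of 0.88. These WT values rest on 5 UMIs in all, and no gene of the list reached the 10 CPM asked of the genes behind that share. The 7 astrocyte and ependymal genes summed to 8.61 CPM against 6.74 CPM, with GFAP, AQP4, S100B and ALDH1L1 at 0, and to 75.02 CPM against 38.8 CPM, led by S100B at 51.6 CPM. Oligodendrocyte lineage genes summed to 18.9 CPM against 21.6 CPM, of which MBP was the whole, and to 80.3 CPM against 54.0 CPM. In the latter 0 of 6 were at least 2-fold higher and 1 was lower by as much, beside 2.55% and 0.200% of all genes. Neural crest and Schwann genes summed to 1.72 CPM against 3.87 CPM, with 5 of 6 at 0, and to 88.2 CPM against 52.5 CPM. In the latter 1 of 6 was at least 2-fold higher, beside 2.55% of all genes. The 5 choroid plexus genes summed to 12.1 CPM against 9.42 CPM and to 9.42 CPM against 2.66 CPM, with TTR the most abundant, at 10.3 and 4.52 CPM (level with OTX2 in the latter), and CLIC6 and FOLR1 at 0 in both.

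GABAergic and V2b genes summed to 477 CPM against 640 CPM and 743 CPM against 889 CPM, nearly all of it GATA3, and GAD1 was at 1.72 and 0.754 CPM. Genes of neurons that contact the cerebrospinal fluid summed to 32.7 CPM against 32.6 CPM and 33.2 CPM against 47.0 CPM, mostly GATA2, with SST and MYO3B at 0 in both libraries. Motor neuron genes summed to 41.3 CPM against 6.14 CPM in the library labelled WT, where SLC5A7 made up 39.6 CPM and 7 of 9 genes were at 0, and 2 cells held 87.5% of the list's UMIs; in the library labelled FKO they summed to 3.39 CPM against 3.39 CPM. Catecholamine neuron genes summed to 115 CPM against 88.9 CPM and 166 CPM against 172 CPM, most of it EN1, while their median log2 ratios were 2.19 (4 of 9 genes) and 2.53 (5 of 9, with NR4A2 at 23.4 against 4.04 CPM), with ALDH1A1, DBH and SLC6A2 at 0 in both. In the library labelled WT the interval of that median ran from -0.13 to 6.15, and 2 cells held 50.7% of the list's UMIs.

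Genes of position along the body axis gave a median log2 ratio of 0.30 over 3 of 12 genes (WT) and of 0.98 over 5 of 12 (FKO), where 2 were at least 2-fold higher, beside 2.55% of all genes. EN1, a gene of the midbrain and anterior hindbrain, was at 87.8 against 71.6 CPM in the library labelled WT and at 123 against 160 CPM in the one labelled FKO, and all 7 HOX genes of the list had 0 UMIs in the FOXA2 cells of both. OTX2, a forebrain and midbrain factor, was at 4.52 against 0.506 CPM in the library labelled FKO, in 8 cells, 6 of them in cluster 14. Stress genes summed to 148 CPM against 169 CPM and to 167 CPM against 185 CPM, with JUN the most abundant. For WT 1 of 7 was at least 2-fold higher and 1 lower by as much, beside 5.87% and 2.86% of all genes. For FKO 7 of 8 were lower, 1 of them at least 2-fold, beside 0.200% of all genes.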

How the data were processed

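UMI counts were made by the authors with Cell Ranger (7.0 on GRCh38 in their notes, 7.1.0 in the file headers) and are used as deposited, without normalization. Filters were 1000 UMIs, 500 genes and 10% mitochondrial UMIs. Pooled UMIs of the FOXA2 cells were divided by those of cells with 0 FOXA2 UMIs, over genes with at least 10 CPM and 30 UMIs. Genes of the lists did not have to reach this floor. A list's count and the share of all genes beside it are therefore over unlike genes. Genes named by size had at least 100 CPM and 10% of cells, 10 per direction. Clusters: 2000 variable genes, 30 components, 15 neighbours, Leiden resolution 1; Scrublet scored doublets. Software: Python 3.11.15, numpy 2.4.6, scipy 1.17.1, pandas 2.3.3, scanpy 1.11.5, scikit-learn 1.9.0, igraph 0.11.9, matplotlib 3.10.9, GENCODE 29. The cells and the 23 gene lists were chosen with earlier results of these data known. Added after seeing values: leaving out the cycling cluster, leaving LINC00261 out of the features, the limit of 9 cells for describing a cluster, and shares of genes in clusters that should lack them. Alternative settings changed the FOXA2 limit, the filters, the reference and the clustering.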

Additional observations from a re-analysis of the deposited data

Results flagged for a closer look

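The median log2 ratio of the floor plate genes without SHH and CORIN was -0.028 (WT) and 3.55 (FKO). The WT interval reaches past 0, from -1.16 to 0.90, and the WT value was 0.05 in cells with exactly 2 FOXA2 UMIs and 1.14 in cells with 3 or more. The difference was not tested. Among barcodes outside the cell filters, 0.257% of those labelled WT (12 of 4667, 0.133% to 0.449%) and 0.730% of those labelled FKO (9 of 1233, 0.334% to 1.38%) met the transcript rule for FOXA2 without SHH or CORIN. These barcodes were not analysed further, and the difference was not tested.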

How the results depend on the processing

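Values that changed under an alternative setting are given by setting, with the main value in brackets; the cause was not tested. Shares are of kept cells that are FOXA2 cells without SHH or CORIN (main 0.564% WT, 2.42% FKO), of FOXA2 cells that lack SHH and CORIN (50.7%, 73.5%), and of those cells in the cluster that holds most of them (36.1%, 19.1%).

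With at least 1 FOXA2 UMI (181 and 496 cells) the WT values were 2.83% of kept cells, 75.7% of FOXA2 cells, 18.2% in the largest cluster, a cycling median of 2.16 (4.17) and 55 genes past 2-fold (791). The FKO values were 6.55%, 86.3%, 10.9%, a serotonergic median of -0.24 (-0.53), a floor plate median of 2.80 (3.55) and 103 genes (275).

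With at least 3 FOXA2 UMIs (14 and 124 cells) the WT share was 0.219%, the floor plate median 1.14 (-0.03) and the number of genes 1489; the FKO share was 1.64% and the number of genes 415.

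With at most 5% mitochondrial UMIs (7 and 70 cells) the WT share was 1.94% and the genes 1633. For FKO the largest-cluster share was 35.7%, the serotonergic median -0.30 and the floor plate median 2.96. With the UMI minimum raised 3-fold the FKO largest-cluster share was 26.4%, and at Leiden resolution 0.5 it was 48.6%.

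With the reference weighted to UMI quartiles the WT cycling median was 3.42. With the reference weighted to clusters the WT cycling median was 0.63, the serotonergic median was 0.07 (-0.65), the progenitor median -0.31 (0.82), GATA3 turned to 0.10 (-0.46) and VIM to -0.70 (1.30). For FKO the serotonergic median turned to 0.14, the floor plate median was 2.14, the LIM-homeodomain median was -0.64 (0.73), the cycling median was 0.0014 (1.66), the progenitor median 0.31 (1.21) and the genes 107. FEV turned to 0.14 (-0.58), GATA3 to 0.35 (-0.26), TPH2 to 0.074 (-0.76), LHX9 to -0.20 (3.35) and SLC17A6 to -0.61 (1.94).

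With the mean over cells of CPM the WT cycling median was 3.44, the FKO serotonergic median -0.90 and the FKO genes 422.

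With 0 UMIs of NTN1 and SPON1 required as well (30 and 111 cells) the WT cycling median was 3.63. For FKO the shares were 1.47% of kept cells and 44.6% of FOXA2 cells, the serotonergic median was -0.35, the floor plate median 0.28, the cycling median 0.066 and the genes 164. The progenitor median turned to -0.14, SPON1 to -2.42 (3.67), NTN1 to -1.30 (3.57) and VIM to -0.29 (1.06).

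Without the condition on SHH and CORIN (71 and 249 cells) the WT share was 1.11%, the floor plate median 4.87, the cycling median 3.58 and the genes 1521. For FKO the share was 3.29%, the largest-cluster share 26.1%, the floor plate median 4.16, the progenitor median 1.78 and the genes 488.

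After thinning to 2000 UMIs with at least 1 FOXA2 UMI (50 and 204 cells) the WT values were 0.788% of kept cells, 86.2% of FOXA2 cells and 18.0% in the largest cluster, and the FKO share of FOXA2 cells was 95.8%. Without cells of the cycling cluster, a setting added after the data were seen, the WT cycling median was 0.38.

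Shares, medians and counts stayed within limits with at most 20% mitochondrial UMIs and without doublets, where 2 single-gene values moved for WT with 20%, and 2 for WT and 2 for FKO without doublets. At Leiden resolution 2, and with LINC00261 left out of the features, the largest-cluster share, the value recomputed for each library, did so too. Over all alternatives 146 of 202 shares, medians and counts stayed within limits, 54 moved, and 2 turned from a main value whose interval lay on 1 side of 0; a change of sign from an interval that reaches past 0 is not counted as a turn. For single genes these numbers were 209, 109 and 10 of 328.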
